A study of Mus musculus with 11 samples.

Results

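Claudins are the membrane proteins that form the strands of tight junctions and set which ions and solutes pass between epithelial cells. The 10 claudin genes described here are Cldn1, Cldn2, Cldn3, Cldn4, Cldn6, Cldn7, Cldn10, Cldn12, Cldn18 and Cldn23. They were taken by gene symbol from a table of 24421 genes, and all 10 were found. Their transcripts were compared by bulk RNA sequencing in epithelial cells of the fetal mouse lung at E17.5, near term, held on microbeads against the surface protein EpCAM. There were 6 Control libraries and 5 libraries labelled PRDM3/16KO, whose floxed Prdm3 and Prdm16 alleles were deleted by ShhCre; Prdm3 stands in the table as Mecom. ShhCre is a Cre inserted at the Shh gene, so it acts where Shh is expressed, which in the lung is the epithelium, and the allele lacks a working Shh copy. The cross joined Prdm3fl/flPrdm16fl/wtShhCre+ males with Prdm3fl/flPrdm16fl/fl females, so embryos of this cross carry floxed Prdm3 on both chromosomes. For the Control embryos the labels give no Prdm3, Prdm16 or Cre alleles, and sex and litter are not given for any library. The labels do not say that libraries came from separate embryos. Transcripts of the Y chromosome were high in 4 Control libraries and 1 knockout library and low in the others. The libraries of a group therefore do not all come from the same embryo, but how many embryos there were is not known. So p-values here speak only of the spread among libraries, much of which may be technical.

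In strands, some claudins seal the space between cells and others leave pores. CLDN1, CLDN3, CLDN4 and CLDN18 are counted among the sealing members, and CLDN2 forms a pore for cations and water. CLDN10 forms anion or cation pores, depending on its isoform. In the alveoli, where type 1 cells spread over the gas exchange surface and type 2 cells make surfactant, CLDN3, CLDN4 and CLDN18 are the claudins best known, and the lung isoform of Cldn18 starts at a promoter that NKX2-1 is known to act on.

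Totals ran from 6065906 to 7869787 counts per library (6065906 to 7869787 in Control and 7286156 to 7652477 in the knockout). Levels are in CPM, read counts relative to TMM-scaled library size (a scaling that trims extreme genes), and means carry the SD over the 6 Control or 5 knockout libraries. Differences were tested with edgeR's quasi-likelihood test over 13916 genes, with Benjamini-Hochberg adjustment and a threshold of 0.05. All 10 members passed the filter on low counts. The selection protein's gene, Epcam, stood at 252 ± 25.3 CPM in Control and 261 ± 10.8 CPM in the knockout (log2 fold change 0.05, SE 0.0717; edgeR, adjusted p = 0.601). Prdm16 ranged from 173 to 227 CPM in Control and from 147 to 181 CPM in the knockout, and Mecom from 206 to 233 and from 321 to 354 CPM. Reads were summed over whole genes and the deleted exons are not named, so these levels do not check the deletion.

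The upstream windows of the 3 most abundant members are shown because Cldn3 and Cldn4 are neighbours whose transcripts went in opposite directions, and because Cldn18 has 2 annotated starts. Cldn4 (chromosome 5, 134945119 to 134946934, minus strand, mm10) and Cldn3 (chromosome 5, 134986214 to 134987472, plus strand) lie 39279 bases apart and point away from each other. No annotated gene lies wholly between them, and genes that reach in over an edge were not counted. Each window holds the 250 bases before a transcription start, 5′ to 3′ on the gene's strand, from RefSeq on GRCm38.p6, the assembly behind mm10. Of the 10 members, 9 matched this table. Capitals mark matches to the motifs searched, on either strand.
Cldn3 (chr5:134985964-134986213, plus strand): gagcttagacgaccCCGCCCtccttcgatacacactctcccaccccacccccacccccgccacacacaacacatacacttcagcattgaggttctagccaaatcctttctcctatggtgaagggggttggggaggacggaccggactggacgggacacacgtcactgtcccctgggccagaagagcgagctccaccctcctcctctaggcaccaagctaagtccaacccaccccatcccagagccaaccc
Cldn4 (chr5:134946935-134947184, minus strand): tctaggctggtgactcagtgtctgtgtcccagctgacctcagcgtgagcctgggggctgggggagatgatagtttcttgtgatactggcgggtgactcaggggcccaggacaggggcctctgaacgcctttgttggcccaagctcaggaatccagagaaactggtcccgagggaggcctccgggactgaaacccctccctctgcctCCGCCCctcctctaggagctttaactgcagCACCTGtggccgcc
Cldn18 upstream start (chr9:99717268-99717517, minus strand): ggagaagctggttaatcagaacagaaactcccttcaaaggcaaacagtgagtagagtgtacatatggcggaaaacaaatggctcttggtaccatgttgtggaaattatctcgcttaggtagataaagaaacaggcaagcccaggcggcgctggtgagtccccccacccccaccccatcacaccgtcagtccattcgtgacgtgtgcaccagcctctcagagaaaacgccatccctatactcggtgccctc
Cldn18 inner start (chr9:99710064-99710313, minus strand): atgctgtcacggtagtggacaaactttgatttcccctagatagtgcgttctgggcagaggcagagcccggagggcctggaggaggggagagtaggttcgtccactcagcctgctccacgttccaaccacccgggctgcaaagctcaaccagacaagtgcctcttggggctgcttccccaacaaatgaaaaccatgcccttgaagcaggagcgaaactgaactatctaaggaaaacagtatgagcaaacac

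The motifs were the TATA box TATAAA, the GC box GGGCGG, the E-box CACCTG bound by SNAI and ZEB repressors, the letters AACNNGTT of grainyhead-like (GRHL) factors, CTCAAG of NKX2-1 sites and GACAAGATA of the zinc fingers shared by EVI1 (the product of Mecom) and PRDM16. The Cldn3 window held 1 GC box and the Cldn4 window 1 GC box and 1 E-box, the latter starting 14 bases before the start site. Neither Cldn18 window held any of the 6 motifs. Over 32536 windows of the same length in the table, 33.0% held the GC box, 17.3% the E-box, 13.3% the NKX2-1 letters, 12.3% the TATA box, 3.62% the GRHL letters and 0.104% the EVI1 letters. A match is only a match of letters, and its absence concerns only these 250 bases.

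Claudin transcripts moved in both directions in the knockout. Of the 10 members, 3 rose (Cldn23, Cldn1 and Cldn4), 5 fell (Cldn3, Cldn18, Cldn7, Cldn10 and Cldn2) and 2 did not pass the test (Cldn6 and Cldn12). Much of the profile differed: by the same test 42.9% of all genes tested were called, 21.1% higher and 21.8% lower. The members' median log2 fold change was -0.39, against 0.0023 over all genes tested. The CPM ranges of the groups did not overlap for 6 members, where 28.5% of all genes tested had ranges that did not overlap. In bulk RNA, fewer cells of a type and less RNA per cell cannot be told apart, and this holds for every difference below.

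**Figure D1:**
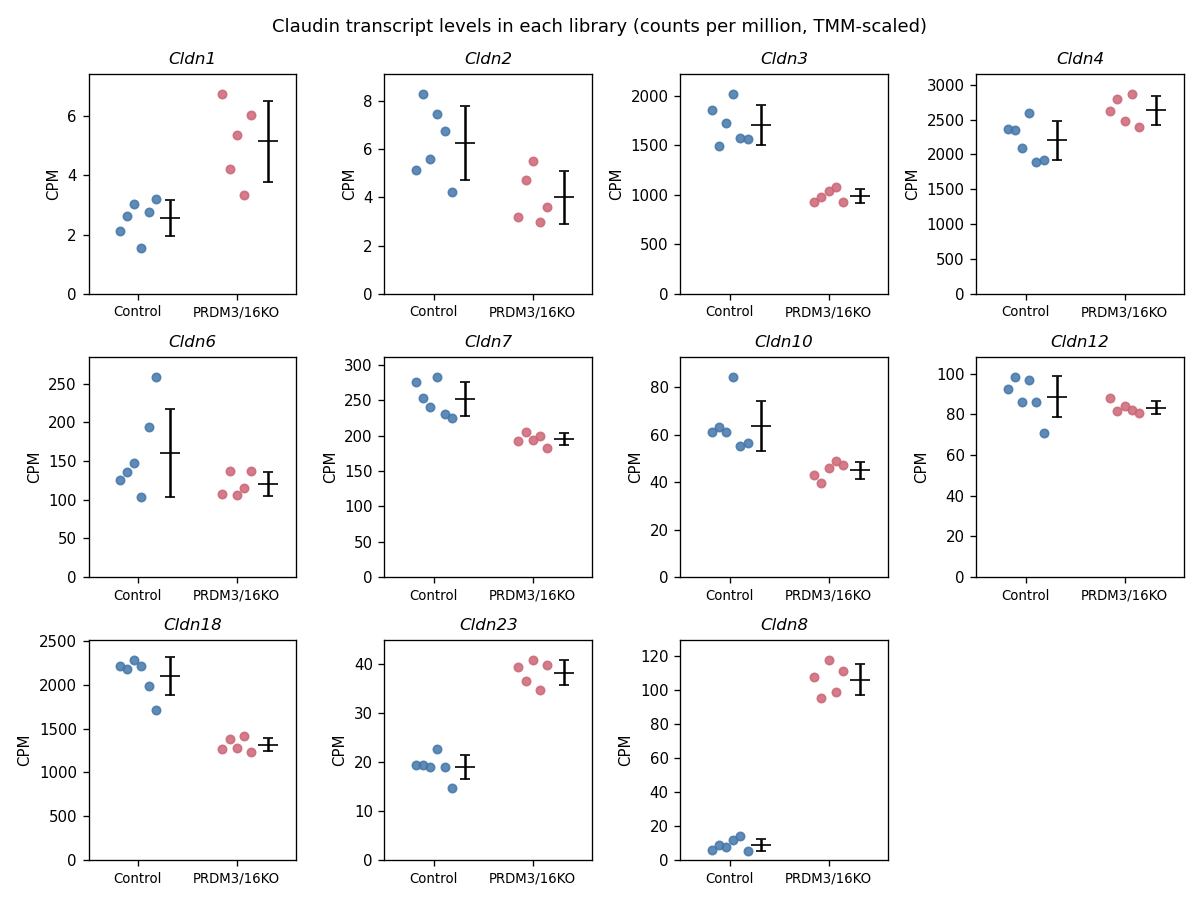
Transcript level (CPM, linear axes from 0) of the 10 members and Cldn8 in each library; points are libraries in order of their number, and bars give the group mean ± SD (6 Control and 5 PRDM3/16KO libraries). Cldn3, Cldn18, Cldn7 and Cldn10 lie lower and Cldn23, Cldn1 and Cldn8 higher in all 5 knockout libraries than in any Control library.

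To set the members beside each other, CPM was divided by each gene's exon length in kilobases. If reads across exon joins were lost, a possibility described below, genes with many exons stand too low here and in the shares. The exons of Cldn3, Cldn4 and Cldn23 fill the whole gene, and those of the other members do not. On this scale Cldn3 stood at 1353 ± 161 and Cldn4 at 1211 ± 155 CPM per kilobase in Control, with ranges that overlapped. Cldn18 followed at 471 ± 48.5, then Cldn7 at 129 ± 12.2 and Cldn6 at 93.3 ± 33.0 CPM per kilobase, a pair whose ranges also overlapped. Cldn10 (24.5 ± 4.11) and Cldn12 (20.9 ± 2.39) overlapped as well. With the length of the longest transcript, Cldn7 and Cldn6 did not overlap in Control (169 to 212 and 63.4 to 160 CPM per kilobase). Cldn23 (10.3 ± 1.35), Cldn2 (1.88 ± 0.461) and Cldn1 (0.528 ± 0.127) came last, each apart from its neighbour. In the knockout Cldn4 led at 1449 ± 112 CPM per kilobase and Cldn3 came after it at 786 ± 54.5, with no overlap. Cldn23, Cldn12 and Cldn10 lay close together there, and the range of Cldn23 overlapped those of both others (20.7 ± 1.37, 19.7 ± 0.725 and 17.3 ± 1.40 CPM per kilobase). With the length of the longest transcript the 3 values were 20.7, 22.2 and 21.1, with Cldn23 last, so their order is not settled. Cldn2 and Cldn1 also overlapped in the knockout.

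The make-up of the 10 members' transcripts differed, with a smaller share of Cldn3 and a larger share of Cldn4 in the knockout. Shares depend on each other, so a fall of any member raises the shares of the others. As a share of the 10 members' summed level per kilobase, Cldn3 made up 40.8% ± 2.04 in Control (SD, n = 6) and 28.5% ± 1.35 in the knockout (SD, n = 5), and Cldn4 36.5% ± 2.05 and 52.5% ± 1.41. The share of Cldn18 was 14.2% ± 1.11 and 10.7% ± 0.116. Cldn7 made up 3.90% ± 0.108 and 3.63% ± 0.104 and Cldn6 2.90% ± 1.26 and 2.54% ± 0.383, and each of the other 5 members stayed under 1%. The groups' shares did not overlap for Cldn3, Cldn4, Cldn18, Cldn7, Cldn23 and Cldn1, and overlapped for Cldn6, Cldn10, Cldn12 and Cldn2. The ratio of Cldn3 to Cldn4 per kilobase, which does not depend on the scaling of the libraries, ran from 0.919 to 1.20 in Control and from 0.505 to 0.604 in the knockout. The summed level of the 10 members was 3316 ± 314 and 2760.1 ± 166 CPM per kilobase. Shares and sums cover the 10 members only and leave out Cldn8 (8.92 ± 3.33 CPM in Control and 106 ± 9.16 CPM in the knockout). They are descriptions of the libraries and carry no test.

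**Figure D2:**
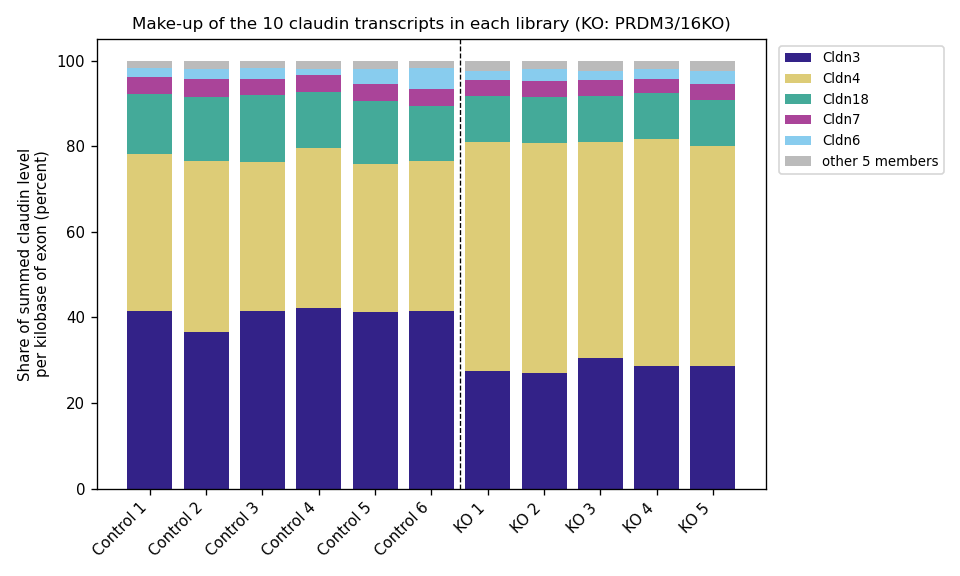
Share (percent) of each claudin in the summed level per kilobase of exon of the 10 members, one stacked bar per library; the dashed line parts the 6 Control from the 5 PRDM3/16KO libraries (KO). Cldn3 takes a smaller and Cldn4 a larger part of every knockout bar than of any Control bar.

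Of the sealing claudins of the alveolar epithelium, Cldn3 and Cldn18 fell, and the difference between their falls was not tested. Cldn3 ranged from 1494 to 2020.5 CPM over the 6 Control libraries (median 1646) and was at 927, 978, 1038, 1080.0 and 925 CPM in knockout libraries 1 to 5. Every knockout library lay below every Control library. The means were 1704 ± 202 and 989.5 ± 68.6 CPM (log2 fold change -0.78, SE 0.0894; edgeR, adjusted p = 4.25e-06), so Control was 1.72-fold higher. Exon sequence of Cldn3 overlaps Wbscr25, an antisense transcript, and since no strand setting is given, reads from that overlap cannot be told apart. Cldn18 (chromosome 9, 99689461 to 99717267, minus strand, mm10) has an isoform typical of lung, and mice without it have a leaky alveolar barrier. It ranged from 1708 to 2282 CPM over the 6 Control libraries (median 2198) and was at 1269.8, 1387, 1282, 1409.7 and 1236 CPM in the knockout, again with no overlap. Cldn18 fell from 2097 ± 216 to 1317 ± 76.7 CPM (log2 fold change -0.67, SE 0.0849; edgeR, adjusted p = 1.22e-05). The table gives 1 count per gene, so transcripts from the 2 Cldn18 starts are summed.

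Cldn4, which encodes a sealing claudin that with CLDN3 binds the enterotoxin of Clostridium perfringens, went the other way. Cldn4 ranged from 1891 to 2597 CPM over the 6 Control libraries (median 2218) and was at 2616, 2795, 2481, 2872 and 2391 CPM in the knockout. Control library 4 lay within the knockout range and the other 5 Control libraries below it. Cldn4 rose from 2200.0 ± 282 to 2631 ± 203 CPM (log2 fold change 0.26, SE 0.0948; edgeR, adjusted p = 0.0390). This call was lost without any 1 of Control libraries 3, 5 and 6 and knockout libraries 1, 2 and 4, where the log2 fold change over all 11 omissions ran from 0.22 to 0.31 and edgeR's adjusted p reached 0.100. Without Control libraries 5 and 6 together the log2 fold change was 0.16 (edgeR, adjusted p = 0.106).

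Cldn7 and Cldn10 also fell, with log2 fold changes nearer 0 than those of Cldn3 and Cldn18, a difference that was not tested. Cldn7 (chromosome 11, 69964779 to 69967885, plus strand, mm10) encodes a claudin found along the sides of many epithelial cells as well as in junctions, where it can bind EpCAM. It ranged from 225 to 283 CPM over the 6 Control libraries (median 247) and was at 192, 205, 194, 200.1 and 183 CPM in the knockout, and the groups did not overlap. The means were 252 ± 23.8 and 195 ± 8.55 CPM (log2 fold change -0.37, SE 0.0699; edgeR, adjusted p = 5.46e-04). The pore-forming Cldn10 (chromosome 14, 118787908 to 118875489, plus strand) ranged from 55.2 to 84.4 CPM over the 6 Control libraries (median 61.2) and was at 43.1, 39.7, 45.8, 48.8 and 47.4 CPM in the knockout. Its highest Control value came from library 4, and the groups did not overlap. Cldn10 fell from 63.6 ± 10.6 to 44.95 ± 3.62 CPM (log2 fold change -0.50, SE 0.102; edgeR, adjusted p = 0.00106), and the counts do not separate its 2 annotated starts. Cldn2 (chromosome X, 139800828 to 139811386, plus strand), the cation and water pore, was scarce: it ranged from 4.20 to 8.30 CPM over the 6 Control libraries (median 6.17) and was at 3.18, 4.73, 5.51, 2.96 and 3.58 CPM in the knockout. The groups overlapped. Cldn2 fell from 6.24 ± 1.53 to 3.99 ± 1.09 CPM (log2 fold change -0.64, SE 0.213; edgeR, adjusted p = 0.0241), on 250 Control and 155 knockout counts. The Cldn2 call was lost without any 1 of Control library 2 and knockout libraries 1, 4 and 5 (edgeR, adjusted p up to 0.0634) and with scaling by library size only (log2 fold change -0.53; edgeR, adjusted p = 0.0513).

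Cldn23 and Cldn1 rose; their log2 fold changes were close to each other. Cldn23 (chromosome 8, 35824712 to 35826559, minus strand, mm10), a member known from surface cells of the intestine, ranged from 14.7 to 22.5 CPM over the 6 Control libraries (median 19.1) and was at 39.3, 36.5, 40.7, 34.6 and 39.7 CPM in the knockout. Every knockout library lay above every Control library. Cldn23 rose from 18.9 ± 2.50 to 38.2 ± 2.53 CPM, 2.02-fold (log2 fold change 1.02, SE 0.0935; edgeR, adjusted p = 4.35e-07). Cldn1 (chromosome 16, 26356642 to 26371841, minus strand), the claudin that seals the epidermis, was the scarcest member in Control. It ranged from 1.56 to 3.21 CPM over the 6 Control libraries (median 2.69) and was at 6.76, 4.20, 5.38, 3.34 and 6.04 CPM in the knockout, a rise from 2.55 ± 0.613 to 5.15 ± 1.38 CPM (log2 fold change 0.99, SE 0.221; edgeR, adjusted p = 0.00197). The ranges of Cldn1 did not overlap, but they nearly met, at 3.21 CPM in Control library 6 and 3.34 CPM in knockout library 4. Cldn1 had 105 counts over the Control and 200 over the knockout libraries.

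Cldn6 and Cldn12 did not pass the test. Cldn6 (chromosome 17, 23679249 to 23682446, plus strand, mm10), a claudin of embryonic epithelia, ranged from 103 to 259 CPM over the 6 Control libraries (median 142) and was at 107, 137, 106, 115 and 137 CPM in the knockout. The 2 highest values, 194 and 259 CPM, came from Control libraries 5 and 6, and the groups overlapped. The means were 161 ± 56.8 and 120.4 ± 15.6 CPM (log2 fold change -0.42, SE 0.201; edgeR, adjusted p = 0.111), and without these 2 libraries the log2 fold change was -0.09 (edgeR, adjusted p = 0.537). Cldn12 (chromosome 5, 5489537 to 5514958, minus strand), tied to calcium transport between cells, ranged from 71.0 to 98.5 CPM over the 6 Control libraries (median 89.4) and was at 88.2, 81.5, 84.3, 82.2 and 80.4 CPM in the knockout. Its means were 88.6 ± 10.1 and 83.3 ± 3.07 CPM (log2 fold change -0.09, SE 0.0777; edgeR, adjusted p = 0.398), and its log2 fold change was 0.02 with scaling by library size only. Without Control libraries 5 and 6 Cldn12 passed the test (log2 fold change -0.17; edgeR, adjusted p = 0.0348).

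The Control libraries differed among themselves in their claudins. Libraries 5 and 6, where Cldn6 was highest, had the 2 lowest Control values of Cldn4, Cldn7, Cldn10 and Cldn18. Library 4 had the highest Control values of Cldn3, Cldn4, Cldn7, Cldn10 and Cldn23 and the lowest of Cldn1 and Cldn6. A set of 10 proliferation genes averaged 4.92 and 5.32 log2 CPM in libraries 5 and 6, 3.77 to 4.29 in the other Control libraries, with the lowest in library 4, and 4.11 to 4.51 in the knockout. The part of proliferation in the claudin levels was not tested. Leaving out Control libraries 5 and 6 gave 2 members higher and 6 lower, where the same fit called 3183 of 13987 genes higher and 3345 lower.

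Outside the 10 members, the claudin with the largest change was Cldn8, a sealing claudin of kidney tubules and colon that pairs with CLDN4. Of 21 other claudin genes in the table, 4 had enough counts to be tested; Cldn8 rose and Cldn5, Cldn9 and Cldn15 did not pass the test. Cldn8 (chromosome 16, 88560828 to 88563183, minus strand, mm10) ranged from 5.43 to 13.9 CPM over the 6 Control libraries (median 8.18) and was at 108, 95.3, 118, 98.8 and 111 CPM in the knockout. It rose from 8.92 ± 3.33 to 106 ± 9.16 CPM, 11.9-fold (log2 fold change 3.57, SE 0.179; edgeR, adjusted p = 2.35e-09). Cldn9 (log2 fold change 0.06) lies 137 bases from the end of Cldn6, and Cldn15 had a log2 fold change of 0.50, which passed without knockout library 4 or 5 (0.62 and 0.63). Cldn5, the claudin of endothelial cells, stood at 6.84 ± 2.16 and 8.97 ± 2.10 CPM (log2 fold change 0.39, SE 0.217; edgeR, adjusted p = 0.162). The other 17 had at most 11 counts in any library, and 8 of them had none in all 11.

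**Figure D3:**
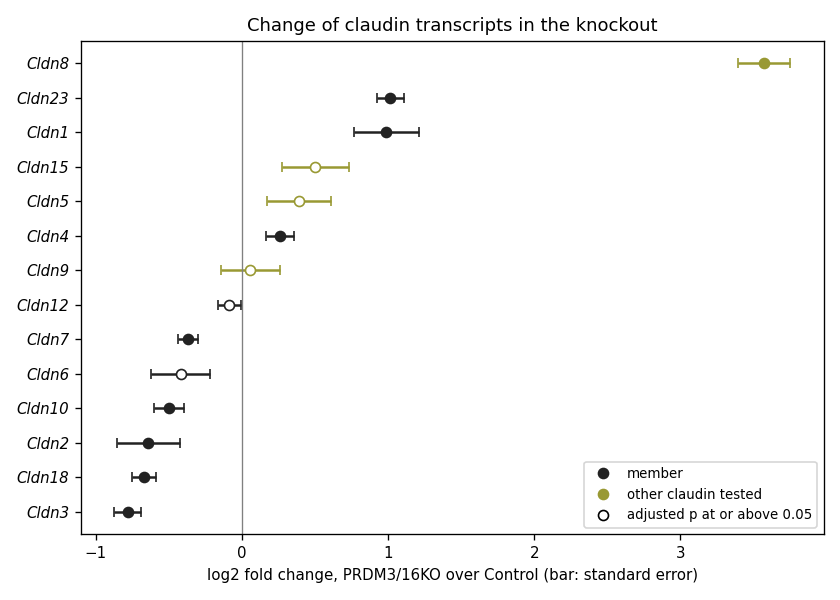
log2 fold change of PRDM3/16KO over Control with its standard error for the 10 members and the 4 other claudins tested; open points did not pass the threshold of 0.05. Cldn8 lies farthest from 0, Cldn23 and Cldn1 lead the members that rose, and Cldn3 and Cldn18 those that fell.

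Claudins share the junction with other membrane proteins. The counts for these and the following lists stand beside the 42.9% of all genes tested that were called. Of 14 tested, 5 rose, 5 fell and 4 did not pass, with a median log2 fold change of -0.02. Ildr2, an angulin of the corners where 3 cells meet, rose from 22.1 ± 4.24 to 267 ± 86.8 CPM (log2 fold change 3.59, SE 0.206; edgeR, adjusted p = 1.66e-08). The junctional adhesion molecule gene Jam2 rose as well (1.92), while Igsf5 (-0.96) and the adenovirus receptor gene Cxadr (-0.75) fell. Occludin, Ocln, had a log2 fold change of -0.01 and F11r (JAM-A) of -0.05, neither called, and the sign of each changed with scaling by library size only (0.10 and 0.06). Without Control libraries 5 and 6, F11r passed as lower (-0.19; edgeR, adjusted p = 0.0252).

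Scaffold and polarity genes, whose products tie claudins to actin or place the junction, numbered 28: 5 rose, 8 fell and 15 did not pass, with a median of 0.02 and a share called close to that of all genes. The angiomotin genes Amot (1.16) and Amotl1 (0.69) and the cingulin gene Cgn (0.65) rose, and its relative Cgnl1 fell (-0.38). Tjp1, named after its value was seen because its product ZO-1 binds claudins directly, fell (-0.47; edgeR, adjusted p = 3.82e-04). The polarity kinase gene Prkci (0.02) did not pass. Of 19 adherens junction and desmosome genes, 5 rose, 10 fell and 4 did not pass, with a median of -0.23. The desmosomal Perp (0.84), Evpl (0.47) and Dsc2 (2.73 ± 1.38 to 12.3 ± 2.75 CPM) rose, the nectin gene Nectin3 (listed as Pvrl3; -0.69) fell, and Ctnnd1 (-0.07) and Ppl (0.22) did not pass. Ppl passed as higher in 4 alternatives: scaling by library size only (0.33), upper-quartile factors (0.28), a Y-linked covariate (0.30) and without Control library 1 (0.30).

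**Figure D4:**
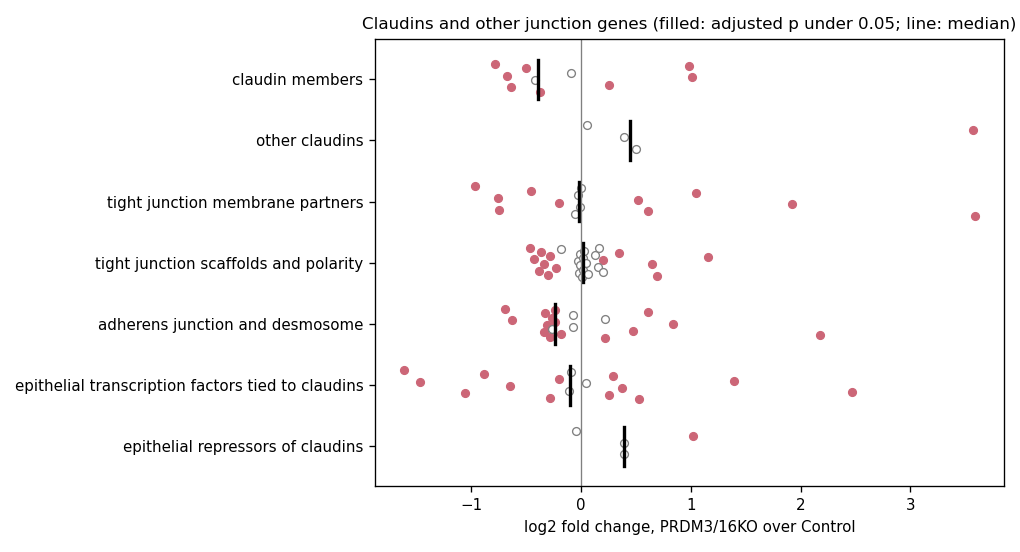
log2 fold change of PRDM3/16KO over Control of every gene tested in the claudin, junction and transcription factor lists; filled points passed the threshold of 0.05 and black lines are list medians. Every list but the repressors and the other claudins holds genes that rose and genes that fell.

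Among 16 epithelial transcription factors, 6 rose, 7 fell and 3 did not pass, with a median of -0.10. Grhl2, known to act on Cldn3 and Cldn4 in lung epithelium, did not pass, at 207 ± 7.66 and 195 ± 5.37 CPM (log2 fold change -0.09, SE 0.0509; edgeR, adjusted p = 0.194), and its relative Grhl1 rose (1.39). Nkx2-1 fell from 1335 ± 109 to 1098 ± 91.0 CPM (log2 fold change -0.28, SE 0.0798; edgeR, adjusted p = 0.010), with ranges that overlapped. That call was lost with scaling by library size only (-0.18; edgeR, adjusted p = 0.100), with the level of mesenchymal markers as a covariate (-0.24; adjusted p = 0.216) and among libraries with high Y-linked transcripts (-0.13; adjusted p = 0.725). Of the ETS factors, Elf5 (-1.61) and Elf3 (-1.05) fell and Ehf (2.47) rose. Foxa1 (0.05) and Gata6 (-0.11) did not pass; Foxa1 did with scaling by library size only (0.15). Of 4 repressors of epithelial genes tested, Zeb1 rose, from 2.75 ± 0.753 to 5.55 ± 0.944 CPM (1.02), and Snai1 (-0.05) and Zeb2 (0.39) did not pass. The Zeb1 call was lost with the same covariate (0.79; edgeR, adjusted p = 0.110), and Zeb2 passed without Control library 6 (0.55; edgeR, adjusted p = 0.0232).

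Markers of some lung epithelial cell types also differed. The summed level of 15 alveolar type 2 markers was 8863 to 15619 CPM in Control and 3362 to 5115 CPM in the knockout, with 14 of 15 lower. For 15 type 1 markers the sums overlapped, at 12305 to 20088 and 16835 to 20351 CPM, with 4 higher and 2 lower. Neuroendocrine markers summed to 37.3 to 67.8 and 589 to 730.4 CPM (8 of 10 higher) and basal cell markers to 125 to 237 and 319 to 544 CPM (3 of 5 higher). The summed levels of airway secretory and ciliated markers overlapped, at 1632 to 3037 and 2129 to 2916 CPM (2 of 11 higher, 2 lower). For the type 1 and the airway markers, the share called was not above the 42.9% of all genes tested. The part of these cell types in the claudin differences was not tested.

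Markers of cell types outside the epithelium had lower summed levels than the alveolar lists. In the knockout, the mesothelial and mesenchymal sums overlapped that of the basal cell markers. The lists hold different genes, so their sums do not compare amounts of cells. Endothelial markers summed to 64.6 to 107 CPM in Control and 71.7 to 93.3 CPM in the knockout (5 of 9 higher, 1 lower) and blood cell markers to 18.3 to 51.1 and 41.0 to 137 CPM (3 of 5 higher), with Hba-a1 and Hbb-bs at 0 in every library. The treatment of multiply matching reads is not given, so counts of 0 for these 2 genes do not show that their transcripts were absent. Mesothelial markers summed to 161 to 303 and 457 to 578 CPM (7 of 7 higher) and mesenchymal markers to 269.9 to 436 and 397 to 721 CPM (5 of 9 higher). The mean log2 CPM of the mesenchymal markers ran from 3.11 to 4.06 in Control and from 3.94 to 4.85 in the knockout. A fit with this mean as a covariate therefore cannot fully separate it from genotype, and calls lost there do not show why. In that fit, Cldn3 (-0.80), Cldn18 (-0.48), Cldn23 (1.00) and Cldn4 (0.44) passed the test. Cldn1 (0.50; edgeR, adjusted p = 0.340), Cldn2 (-0.46; adjusted p = 0.426), Cldn7 (-0.29; adjusted p = 0.0942) and Cldn10 (-0.47; adjusted p = 0.0705) did not.

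By Y-linked transcripts, 4 Control libraries and 1 knockout library were high and 2 and 4 low, so this split was uneven between the groups. Among low-Y libraries alone, 2 members were higher (Cldn1 and Cldn23) and 4 lower (Cldn3, Cldn7, Cldn10 and Cldn18). Their log2 fold changes there were -0.67 for Cldn3, -0.59 for Cldn18 and 1.20 for Cldn23. Among high-Y libraries, where the lone knockout library is assumed to vary like the others, the values were -0.74, -0.63 and 0.79. There Cldn3 and Cldn23 passed the test and Cldn18 did not (edgeR, adjusted p = 0.0517).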

How the data were processed

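Poly(A) RNA was sequenced from EpCAM-selected cells of E17.5 lungs in 11 libraries. The authors deposited a table of raw counts per gene symbol, whole numbers that are not normalized. Per the submitters' processing notes, the tools were HTSeq 2.0, Bowtie2 2.4.2, Trim Galore 0.4.2, DESeq2, SAMtools 1.10.0, FastQC and Picard, on mm10. How each was used, the annotation, strand setting, and treatment of duplicates and multiply matching reads were not given in the sources used here. Bowtie2 does not split reads over introns, so if it aligned to the genome, reads across exon joins were lost in both groups, more from genes with many exons. Claudins resemble each other in sequence, so reads shared between close members could be lost or split. Spreadsheet software had turned 27 symbols into dates; these rows hold 0.182% of counts and are not named.

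Genes with few counts were removed with filterByExpr, libraries were scaled by TMM, and genotype was tested with edgeR 4.0.16 (R 4.3.3; glmQLFit with robust moderation, two-sided, Benjamini-Hochberg over all genes tested). Fold changes set the knockout over Control, and the SE is the unshrunk coefficient over the square root of F. Exon lengths and coordinates are from GENCODE M21 on mm10, counted from 1. The steps were tested on simulated data in which few genes changed. There they called 14% of 1.25-fold, 64% of 1.5-fold and 92% of 2-fold changes. Of the calls, 6.9% fell on unchanged genes. Many more genes were called in the real data, so these shares need not carry over. The precision of scarce genes is limited by counting: Cldn1 had 9 to 51 counts per library.

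The members and the gene lists were chosen with earlier results of these data known. Named are all members, the other claudins tested, Nkx2-1, Grhl2, Prdm16 and Mecom, and from each list up to 4 genes past the threshold by adjusted p and the 2 most abundant that did not pass; Tjp1 is outside this rule. The closing observations add the 3 genes most like each of the called claudins given there. Some results that this rule names are not reported here. Alternatives were 3 other scalings, 2 other filters, DESeq2 1.42.0, limma-voom (limma 3.58.1), no robust moderation, a replicate block, a Y-linked and a mesenchymal covariate, each library left out, Control libraries 5 and 6 left out, and a threshold of 0.01. Fits within low-Y and high-Y libraries, divided at a mean of 3 log2 CPM, were added after seeing the data.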

Additional observations from a re-analysis of the deposited data

Results flagged for a closer look

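In 3 of 92 groups of libraries examined (46 genes in 2 groups), 1 library lay far from the rest, where chance gives about 1 in 20. Cldn10 was at 84.4 CPM in Control library 4 and at 55.2 to 63.2 CPM in the other Control libraries. Without that library its log2 fold change was -0.40 (edgeR, adjusted p = 2.60e-04). Perp was at 339.6 CPM in knockout library 1 against 301 to 312 CPM in the others, and Evpl at 203 CPM in Control library 1 against 165 to 179 CPM. Perp and Evpl kept their calls without those libraries (log2 fold changes 0.81 and 0.52).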

How the results depend on the processing

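Over 260 alternative values for the 10 members, 231 stayed on the same side of the threshold, 26 lost a call, 3 gained one and 2 uncalled values, both of Cldn12, changed sign (0.02 with library size only and 0.04 with the mesenchymal covariate). The calls of Cldn3 and Cldn23 held in all 26 alternatives and that of Cldn18 in all but the high-Y libraries. Most of the members' lost calls were of Cldn4 (10) and Cldn2 (9). For the 36 other named genes, 11 of 936 values lost a call and 12 gained one. Over all genes, 2936 were higher and 3037 lower. With the mesenchymal covariate these were 1493 and 1442, with 2 members lower; among low-Y libraries 1932 and 1821; and among high-Y libraries 869 and 933, with 1 member higher and 1 lower. Fewer libraries enter the last 2. The mesenchymal covariate went largely with genotype, and the cause of the fewer calls with it was not tested. Scaling by library size only moved the all-gene median log2 fold change to 0.11 and the calls to 3992 higher and 2095 lower. Leaving out single libraries gave 2 to 3 members higher and 4 to 6 lower. Cldn6 gained a call without Control library 4 (-0.52; edgeR, adjusted p = 0.0477) and with the Y-linked covariate (-0.52; adjusted p = 0.0499). With lengths of the longest transcript, shares in Control and knockout were 5.51% and 5.15% for Cldn7, 0.870% and 0.747% for Cldn10 and 0.691% and 0.785% for Cldn12, and in the knockout 51.0% for Cldn4 and 11.1% for Cldn18. Same-numbered libraries did not deviate together (correlations -0.061 to 0.266; 1 of 5 correlated best with its own number). With the replicate block, 3079 genes were higher and 3118 lower, and 3 and 5 members; no member's call changed, and of the other named genes Zeb2 gained one (0.55).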

Other observations

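The genes whose levels were most like those of called claudins were found by the root mean square difference of log2 CPM over the 11 libraries, with each gene centred on its Control mean, among 11163 named genes with at least 5 CPM. A small difference means both a like fold change and a like spread among libraries. Closest to Cldn18 were Atp8a1, Rnf145 and Lrrfip1 (0.057 to 0.066), Atp8a1 encoding a phospholipid flippase. Closest to Cldn3 were Mtch1, Crat and Sdc1 (0.074 to 0.081), Sdc1 encoding the epithelial proteoglycan syndecan-1. For Cldn10 they were Avpi1, Npas2 and Slc44a3 (0.068 to 0.081). Closest to Cldn4 were Ddr1, Sparc and Stk24 (0.07 to 0.078), among them the collagen receptor gene Ddr1, and closest to Cldn23 were Acsl1, Usp24 and Grip1 (0.115 to 0.128), Acsl1 encoding an acyl-CoA synthetase. The scarce members had less close matches, Slc36a4, Dennd5b and Gk5 (0.234 to 0.246) for Cldn1 and Ly6e, Vnn3 and Arpc1b (0.175 to 0.216) for Cldn2. Closest to Cldn8 were Atp10b, Atp6v0e2 and Chrm1 (0.237 to 0.321), Chrm1 encoding a muscarinic receptor.

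Of the claudins too scarce to test, 3 are named after their counts were seen. Cldn11, known from myelin and testis, had 23 counts over the Control and 7 over the knockout libraries. Cldn22 had 37 and 42, with exons that overlap Wwc2 on the other strand, and Cldn19, a kidney claudin, had 15 and 23.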
